A study of Homo sapiens with 2 samples.

Results

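The aminoacyl-tRNA synthetase genes examined here are 35 protein-coding genes of 20033 in the RefSeq gene table, given as a list of symbols: 19 for the enzymes of the cytosol and 16 for those of mitochondria. Other synthetase genes were not analysed here. For each gene, CUT&Tag summits within 1 kb and within 50 kb of either gene end were taken. CUT&Tag releases DNA next to a bound antibody with a tethered transposase, so read density marks the places its target occupies. The target was EWS-FLI, the fusion of EWSR1 with the ETS factor FLI1, and the cells were TC32, a line established from Ewing sarcoma. There was 1 library of TC32 cells given siEWS-FLI and 1 of TC32 cells given siNEG. The labels give neither what siNEG stands for nor a time after treatment nor the antibody, and the amount of fusion protein was not measured by these data. With 1 library in each group no difference below has a replicate check and none was tested; intervals cover counting error alone.

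Aminoacyl-tRNA synthetases join each amino acid to its own tRNA, the step that fixes the genetic code during translation. Most amino acids have a cytosolic enzyme, encoded by a gene whose symbol ends in 1, and a separate mitochondrial enzyme, encoded by a nuclear gene whose symbol ends in 2. The enzymes fall in class I and class II, which differ in the fold of the catalytic domain, and several cytosolic enzymes are held together with scaffold proteins in the multisynthetase complex. Their promoters are active in nearly all dividing cells. ETS factors recognise a GGAA core, and many widely used promoters hold the longer letters CCGGAAGT.

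Signal is given as the summit pileup, the number of raw reads, each extended to 200 bases, that cover the summit base. Pileups were not scaled between libraries. Outside a 10000-base window of the mitochondrial genome the siEWS-FLI library held an estimated 0.562 times as many reads as the siNEG library. Raw pileups were therefore not taken at equal depth. The caller's background stood at 0.348 (siNEG) and 0.239 (siEWS-FLI) extended reads over each base, and at those levels a pileup of up to 3 reads stayed uncalled in either library. As a check of the label, 6 of 6 loci reported as EWS-FLI1 targets had a siNEG summit within 50 kb, against 71.8% of all protein-coding genes, and 3 of 6 within 1 kb, against 34.1%. With siEWS-FLI the counts at these loci were 2 of 6 within 50 kb, against 44.5% of all genes, and 0 of 6 within 1 kb, against 12.3%. Of 6 hepatocyte genes 2 had a siNEG and 1 a siEWS-FLI summit within 50 kb, and 0 had either within 1 kb. With 6 loci these counts check the label weakly.

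The bases before the gene start are shown for 6 genes with a siNEG site and for NARS2, whose site was called with siEWS-FLI alone. The siNEG summit lies in the bases printed for PARS2, EARS2, CARS1 and WARS1. For RARS1 and HARS2 it lies outside them. The 6 sites are among the strongest siNEG sites of the family, and HARS2 stands for the stretch between HARS1 and HARS2. CARS2, second to PARS2 with 112 siNEG reads, is not shown. Its promoter window held no GGAA, and its site lies 6549 bases before the start of that window's gene entry. YARS1, with 61 siNEG reads, had no promoter entry. Sequences are from RefSeq on GRCh38.p14, 5′ to 3′ on the gene's own strand, cut where another protein-coding gene or an earlier start of the same gene begins. Capitals mark CGGAAG or its reverse complement CTTCCG, a 6-letter ETS core.
PARS2, chr1:54764524-54764773, minus strand: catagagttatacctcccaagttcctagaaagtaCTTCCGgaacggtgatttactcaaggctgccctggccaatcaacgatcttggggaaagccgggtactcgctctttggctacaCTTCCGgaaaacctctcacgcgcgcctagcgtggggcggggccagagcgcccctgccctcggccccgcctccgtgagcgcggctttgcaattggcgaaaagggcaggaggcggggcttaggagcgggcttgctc
EARS2, chr16:23557376-23557600, minus strand: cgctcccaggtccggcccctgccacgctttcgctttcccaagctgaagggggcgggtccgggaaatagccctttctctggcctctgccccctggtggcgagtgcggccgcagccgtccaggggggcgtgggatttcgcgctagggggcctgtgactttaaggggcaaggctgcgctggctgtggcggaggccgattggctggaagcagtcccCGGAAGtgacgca
CARS1, chr11:3057424-3057673, minus strand: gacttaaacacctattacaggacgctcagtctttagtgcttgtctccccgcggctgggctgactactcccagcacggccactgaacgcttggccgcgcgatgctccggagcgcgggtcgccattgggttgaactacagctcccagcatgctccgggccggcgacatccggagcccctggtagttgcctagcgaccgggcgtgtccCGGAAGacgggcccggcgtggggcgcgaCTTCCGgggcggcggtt
WARS1, chr14:100376328-100376484, minus strand: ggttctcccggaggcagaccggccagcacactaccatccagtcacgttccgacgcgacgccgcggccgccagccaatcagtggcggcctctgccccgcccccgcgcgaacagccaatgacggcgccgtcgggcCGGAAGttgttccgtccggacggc
RARS1, chr5:168486221-168486470, plus strand: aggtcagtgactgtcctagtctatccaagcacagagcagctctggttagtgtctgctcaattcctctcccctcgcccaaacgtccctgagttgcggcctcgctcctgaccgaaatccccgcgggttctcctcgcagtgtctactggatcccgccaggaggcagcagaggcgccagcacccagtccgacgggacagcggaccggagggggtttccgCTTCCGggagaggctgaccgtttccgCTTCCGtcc
HARS2, chr5:140691371-140691454, plus strand: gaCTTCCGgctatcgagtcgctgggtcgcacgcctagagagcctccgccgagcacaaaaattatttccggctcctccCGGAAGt
NARS2, chr11:78574865-78575114, minus strand: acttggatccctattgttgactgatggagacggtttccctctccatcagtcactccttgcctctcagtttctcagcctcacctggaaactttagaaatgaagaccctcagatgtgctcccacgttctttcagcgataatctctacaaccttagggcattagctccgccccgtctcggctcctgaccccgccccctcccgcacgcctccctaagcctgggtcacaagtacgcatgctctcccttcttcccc

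Most synthetase genes had a siNEG site at a gene end, and fewer had a siEWS-FLI site. Of the 35 genes 27 had a siNEG summit within 1 kb of an end (77.1%), against 34.1% of all protein-coding genes. A siEWS-FLI summit lay there in 12 of 35 (34.3%), against 12.3% of all genes. The siNEG interval overlapped a siEWS-FLI interval, called shared below, at 10 of the 27 genes (37.0%), against 30.8% of all genes with a siNEG gene-end summit. At 17 genes no siEWS-FLI interval overlapped the siNEG one. At 2 genes, LARS2 and NARS2, the reverse held, and 6 genes had no summit within 1 kb in either library. Because HARS1 and HARS2 lie head to head with the same interval, the 27 genes hold 26 siNEG sites. The median siNEG pileup of the 27 was 14 reads, with a range of 4 to 290, and the median over all genes with such a summit was 12. In the siEWS-FLI library the 12 pileups ran from 5 to 24, with a median of 7 against 8 over all genes.

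**Figure D1:**
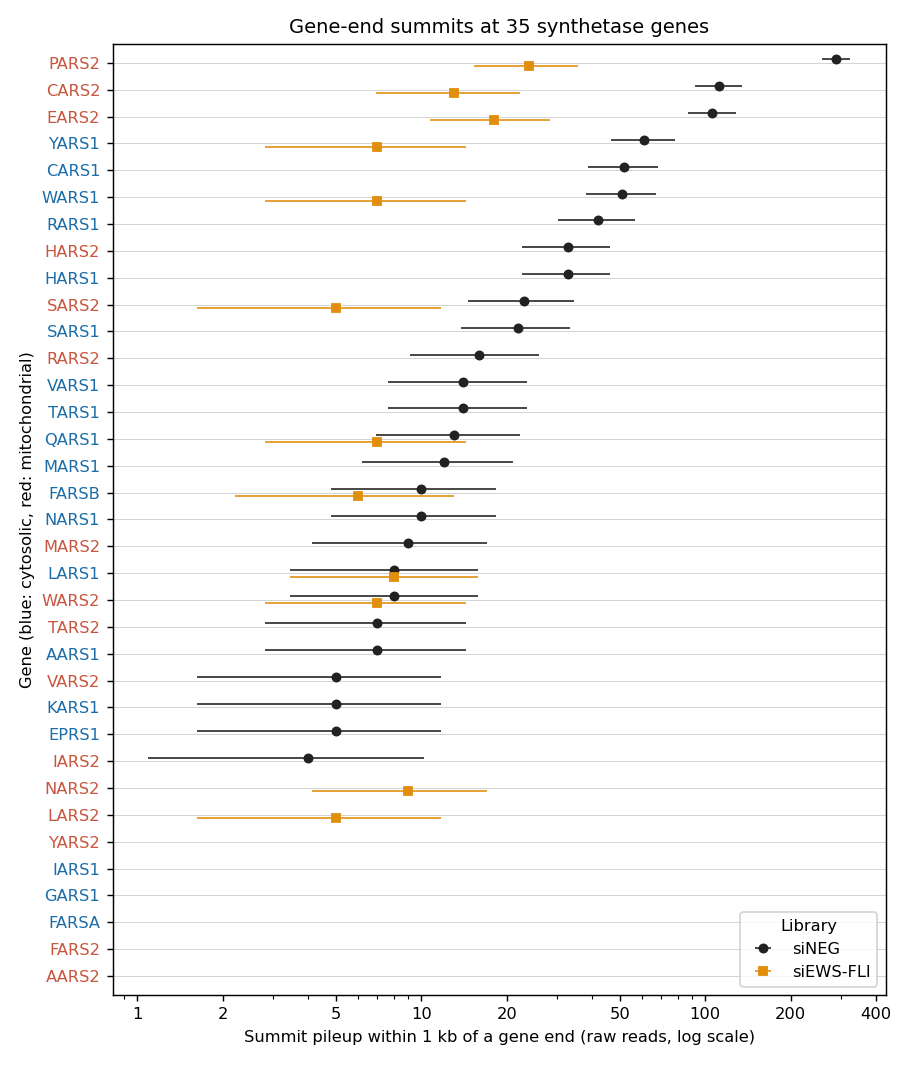
Summit pileup within 1 kb of a gene end for each of the 35 genes, in raw reads on a log axis, for the siNEG library (black circles) and the siEWS-FLI library (orange squares); lines are exact 95% Poisson intervals and cover counting error alone. PARS2 stands highest with 290 and 24 reads; where both libraries were called, their intervals are apart from PARS2 down to SARS2 and overlap from QARS1 down, and the 6 lowest genes, with no points, had no summit there.

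Among the mitochondrial enzymes, the strongest gene-end sites of the whole family lay at the genes of the prolyl, cysteinyl and glutamyl enzymes. PARS2, which encodes prolyl-tRNA synthetase, had a siNEG pileup of 290 reads (95% interval 258 to 325) and a siEWS-FLI pileup of 24 (15.4 to 35.7) at chr1:54764483-54765005 on hg38. The siEWS-FLI pileup was 0.0828 of the siNEG one (0.0522 to 0.126). It ranked 14th of 6834 genes by siNEG pileup at a gene end. CARS2, the gene of cysteinyl-tRNA synthetase, had 112 siNEG reads (92.2 to 135) and 13 siEWS-FLI reads (6.92 to 22.2) at chr13:110712452-110713571, a ratio of 0.116 (0.0599 to 0.207). That site lies within 1 kb of an end of ING1 as well, the gene of a chromatin reader. Its siNEG summit was 6549 bases before the CARS2 start in the promoter table. EARS2, the gene of glutamyl-tRNA synthetase, had 106 siNEG (86.8 to 128) and 18 siEWS-FLI reads (10.7 to 28.4) at chr16:23557085-23557795, which is also at an end of UBFD1, a ratio of 0.170 (0.0969 to 0.282). In these 3 genes siNEG stood above siEWS-FLI with no overlap of the intervals, and each ratio lay below the 0.562 of the read totals.

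Other mitochondrial enzyme genes had moderate or weak sites. SARS2, for seryl-tRNA synthetase, had 23 siNEG reads (14.6 to 34.5) and 5 siEWS-FLI reads (1.62 to 11.7), a ratio of 0.217 (0.0646 to 0.585), at an end that it shares with MRPS12, a mitochondrial ribosomal protein gene. Its summits were 204 bases apart, and the interval of its ratio holds the 0.562 of the read totals. WARS2, for tryptophanyl-tRNA synthetase, had 8 and 7 reads (3.45 to 15.8 and 2.81 to 14.4), and the libraries could not be told apart there (ratio 0.875, 0.270 to 2.76). RARS2, for arginyl-tRNA synthetase, had 16 siNEG reads (9.15 to 26.0) at an end shared with the origin recognition gene ORC3, with no siEWS-FLI interval. The methionyl gene MARS2 had 9, the threonyl gene TARS2 7, the valyl gene VARS2 5 and the isoleucyl gene IARS2 4 siNEG reads, again without a siEWS-FLI interval.

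The cytosolic set had more siNEG gene-end sites and none of its pileups reached those of the top mitochondrial genes. Of 19 cytosolic genes 16 had a siNEG summit (84.2%) and of 16 mitochondrial ones 11 (68.8%), against 34.1% of all protein-coding genes. The common interval of HARS1 and HARS2 counts in both sets. For siEWS-FLI the counts were 5 of 19 (26.3%) and 7 of 16 (43.8%), against 12.3% of all genes. The highest siNEG pileup was 61 reads among the cytosolic and 290 among the mitochondrial genes, while the medians, 13.5 and 16, were close. By enzyme class, 15 of 18 class I and 11 of 16 class II genes had a siNEG summit, and 8 and 4 a siEWS-FLI summit. EPRS1, whose product joins a class I and a class II enzyme, is in neither count. These groups are small, and their differences were not tested.

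YARS1, the gene of tyrosyl-tRNA synthetase, had the highest cytosolic pileup, with 61 siNEG reads (46.7 to 78.4) and 7 siEWS-FLI reads (2.81 to 14.4), a ratio of 0.115 (0.0443 to 0.251), at chr1:32817299-32817797 beside S100PBP. A second siNEG interval 688 bases from the gene had 14 reads. WARS1, for the cytosolic tryptophanyl enzyme, had 51 siNEG (38.0 to 67.1) and 7 siEWS-FLI reads (2.81 to 14.4) at chr14:100376109-100376650, an end shared with WDR25, a ratio of 0.137 (0.0526 to 0.304). In both, siEWS-FLI was lower with no overlap of the counting intervals. FARSB, for the beta subunit of phenylalanyl-tRNA synthetase, had 10 siNEG (4.80 to 18.4) and 6 siEWS-FLI reads (2.2 to 13.1). The interval of this ratio of 0.6 (0.179 to 1.82) holds both equality and the 0.562 of the read totals.

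Several cytosolic genes with clear siNEG sites had no overlapping siEWS-FLI interval. CARS1, for the cytosolic cysteinyl enzyme, had 52 siNEG reads (38.8 to 68.2) at chr11:3057337-3057800. A siEWS-FLI pileup of 9 reads or fewer could have gone uncalled there at the local background seen with siNEG, and 3 or fewer at the lowest siEWS-FLI background. The first limit can be too high, since CARS2, SARS2, WARS1 and YARS1 were called with siEWS-FLI below it (limits of 19, 6, 8 and 10 reads). HARS1 and HARS2, the head-to-head genes of the cytosolic and mitochondrial histidyl enzymes, had 33 siNEG reads (22.7 to 46.3) in their common interval, chr5:140691106-140691685, where those limits were 7 and 3 reads. SARS1, for the cytosolic seryl enzyme, had 22 siNEG reads (13.8 to 33.3), and TARS1 and VARS1, for the threonyl and valyl enzymes, had 14 each (7.65 to 23.5). NARS1, for the asparaginyl enzyme, had 10 and AARS1, for the alanyl enzyme, 7 at the start. AARS1 also had a siNEG summit of 6 reads at its other end, which lies beside EXOSC6, an exosome subunit gene. Absence of a call puts a site under the threshold and does not mean that it had no reads.

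RARS1 had the strongest siNEG site among the genes of the multisynthetase complex. Of the 7 complex members in the list 6 had a siNEG summit (85.7%, against 34.1% of all genes) and 2 a siEWS-FLI summit (28.6%, against 12.3%). The median siNEG pileup of the 6 was 10 reads, against 12 over all genes with such a summit. RARS1, for arginyl-tRNA synthetase, had 42 siNEG reads (30.3 to 56.8) at chr5:168486336-168486857 and no siEWS-FLI summit within 50 kb; up to 7 reads would have stayed uncalled at the siNEG local background and up to 3 at the lowest siEWS-FLI background. QARS1, for glutaminyl-tRNA synthetase, had 13 siNEG (6.92 to 22.2) and 7 siEWS-FLI reads (2.81 to 14.4), with a ratio of 0.538 (0.182 to 1.45). LARS1, for leucyl-tRNA synthetase, had 8 reads in each library (3.45 to 15.8), with summits 203 bases apart, and so a ratio of 1 (0.327 to 3.06). Neither gene differed beyond counting error. MARS1, for methionyl-tRNA synthetase, had 12 siNEG reads, and EPRS1 and KARS1, for the glutamyl-prolyl and lysyl enzymes, 5 each; IARS1, for isoleucyl-tRNA synthetase, had no summit within 1 kb. Of the scaffold genes, AIMP2 had 9 and EEF1E1 6 siNEG reads with no siEWS-FLI interval, and AIMP1 had 8 siEWS-FLI reads 875 bases inside its start and no siNEG summit. The AIMP1 summit is also within 1 kb of an end of TBCK, and the AIMP2 summit of PMS2.

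LARS2 and NARS2, both for mitochondrial enzymes, were called with siEWS-FLI and not with siNEG. Over all genes a siEWS-FLI summit within 1 kb without a siNEG one was found in 1.14%. NARS2, for asparaginyl-tRNA synthetase, had 9 siEWS-FLI reads (4.12 to 17.1) in an interval of 200 bases at chr11:78574900-78575099, 181 bases before its start. LARS2, for leucyl-tRNA synthetase, had 5 (1.62 to 11.7) in an interval of 200 bases, 145 bases after its start. At siNEG's library background up to 3 reads would have stayed uncalled at either place. Both counts of reads are small, and neither gene had a siNEG summit within 50 kb.

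No summit lay within 1 kb of AARS2, FARSA, FARS2, GARS1, IARS1 or YARS2 in either library. GARS1, whose glycyl enzyme serves both compartments, FARS2, for the mitochondrial phenylalanyl enzyme, and YARS2, for the mitochondrial tyrosyl enzyme, also had none within 50 kb. FARS2 spans 522 kb, and beyond 50 kb of its ends it held 2 siNEG summits of at most 11 reads and 1 siEWS-FLI summit of 4 reads. FARSA, for the alpha subunit of the cytosolic phenylalanyl enzyme, thus differed from FARSB, the gene of its partner subunit, which had a site in both libraries.

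The siNEG summits lay close to the transcription start, which the choice of window at either end did not require. A promoter entry with strand was matched for 30 of the 35 genes; AARS2, LARS1, VARS1, VARS2 and YARS1 had no entry. Of 23 such genes with a siNEG gene-end summit, 22 had it within 1 kb of the start (95.7%), near the 90.5% of 5745 genes over the genome. Within 200 bases it was 21 (91.3%), against 61.2% of the 5745. The exceptions were CARS1, 209 bases upstream, and CARS2, whose site is at an outer gene end 6549 bases before the start in the promoter table. Among the 22, 14 summits were upstream (63.6%, near the 67.2% of all genes) and 8 downstream, with a median of 56.0 bases upstream against 98.0 for all genes. The siEWS-FLI summits at shared sites lay a median of 63.5 bases from the siNEG ones, from 6 bases at YARS1 to 204 at SARS2.

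**Figure D2:**
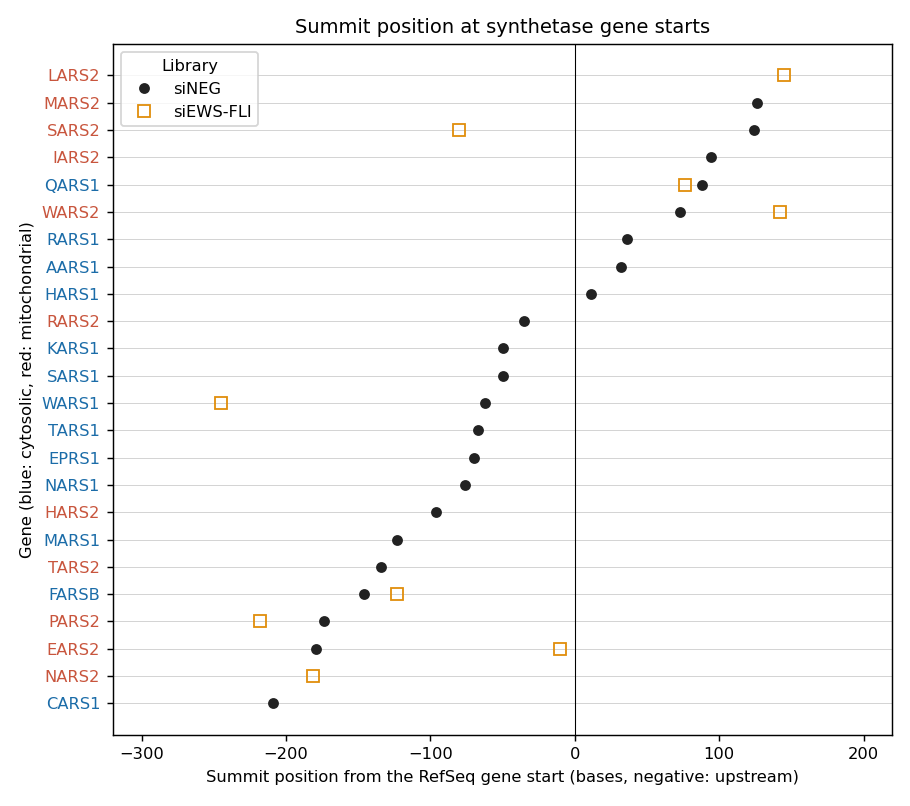
Position of the strongest summit from the RefSeq gene start, in bases (negative is upstream), for the genes with strand and a summit within 1 kb of the start, with siNEG as filled black circles and siEWS-FLI as open orange squares. The siNEG summits run from 209 bases upstream at CARS1 to 126 downstream at MARS2, and the siEWS-FLI summits from 245 upstream at WARS1 to 145 downstream at LARS2.

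ETS core letters were common in these promoters. The window from 250 bases before to 50 after the start was searched on both strands for the core GGAA. The longer CGGAAG, which contains that core, was searched in the same way, and so was CCGGAAGT, which contains both. The last search was for 4 copies of the core in a row. GGAA was in 29 of 30 synthetase promoters (96.7%) and in 95.1% of 15842 protein-coding promoters, so it does not set them apart. The promoter without it was that of CARS2, whose strong siNEG site lies outside the window searched. CGGAAG was in 17 of 30 (56.7%) against 25.6%, and CCGGAAGT in 7 of 30 (23.3%) against 6.19%. Among genes with a siNEG gene-end summit the shares were 16 of 23 (69.6%) against 44.3% for CGGAAG, and 7 of 23 (30.4%) against 14.4% for CCGGAAGT. The run of 4 cores was in 0 of 30 and in 2 of 15842 promoters. Median GC content was 62.0% in the 30 promoters and 62.7% in all. A match is a stretch of letters, not a shown binding site, and no share was tested.

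The CCGGAAGT promoters were those of CARS1, EARS2, HARS1, HARS2, NARS1, PARS2 and WARS1, whose sequences are shown above except that of NARS1. Their siNEG pileups ran from 10 to 290 reads with a median of 51.0, and those of the 16 other promoters with a siNEG gene-end summit from 4 to 112 with a median of 11.0. Over all genes with a siNEG gene-end summit the medians were 24.0 with and 11.5 without the letters. PARS2 held CCGGAAGT at 2 places, and its siNEG summit was 36 bases from the nearer. HARS1 and HARS2 also had it at 2 places, at either edge of the 84 bases between them, 13 bases from the summit at the nearest. WARS1 had the summit 37 bases, NARS1 24, EARS2 140 and CARS1 191 bases away. In 12 synthetase promoters that held both the summit and CGGAAG the median distance was 36.0 bases, and 10 of 12 lay within 50 bases (83.3%), against 55.4% of 1699 promoters over the genome. HARS1 and HARS2, with the same summit, are both among the 12. RARS1 shows CGGAAG at 2 places without CCGGAAGT, and NARS2 shows neither in the bases printed.

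Over all genes the share of shared sites rose with siNEG strength; among the synthetase genes it was high in the strongest class and showed no order below it. Of the synthetase genes with 50 or more siNEG reads 5 of 6 were shared (83.3%, Wilson 95% interval 43.6 to 97.0), against 86.9% of all genes of that strength, and CARS1 was the exception. At 20 to 49 reads 1 of 5 was shared (20.0%, 3.62 to 62.4) against 53.1%. SARS2 was shared, and RARS1, HARS1, HARS2 and SARS1 were not. HARS1 and HARS2 have the same interval but count as separate genes here, which the Wilson interval does not allow for. At 10 to 19 reads it was 2 of 7 (28.6%) against 22.5%, and at 4 to 9 reads 2 of 9 (22.2%) against 7.64%. With the shares of all genes at each strength, 10.1 of the 27 genes would be shared, and 10 were. That match is in the total, and the classes hold too few synthetase genes to compare one by one. If a siNEG pileup is multiplied by 0.562, 12 of the 17 genes without a shared interval lie above the siEWS-FLI pileup that could have stayed uncalled at the siNEG local background, and 5 do not; at the lowest siEWS-FLI background it is 13 and 4. This takes no account of counting error.

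**Figure D3:**
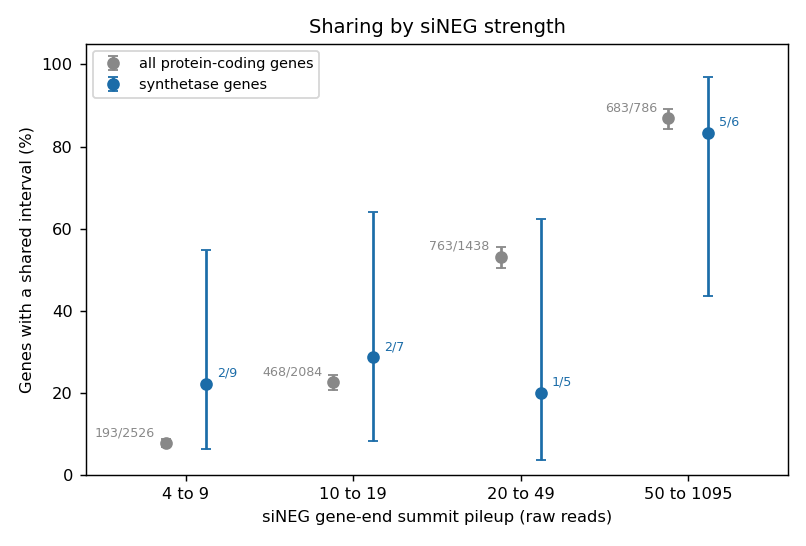
Percent of genes with a shared gene-end interval in 4 classes of siNEG summit pileup in raw reads, for all protein-coding genes (grey) and synthetase genes (blue); bars are Wilson 95% intervals and the fractions give the counts. The synthetase points have wide intervals, which hold the all-gene share in every class, and both sets are highest at 50 reads or more (5 of 6 and 683 of 786 genes).

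The pileup ratio, siEWS-FLI over siNEG, was lower at stronger sites. Its median over the 10 shared synthetase genes was 0.194, with a range of 0.0828 to 1, and over 2107 genes with a shared gene-end interval it was 0.267. The value depends on the measure: with the deposited fold enrichment over local background in place of the raw pileup, the synthetase median was 0.544. The fold divides by a local background that was higher with siNEG, for example 9.40 against 1.30 at PARS2. The 0.562 of the read totals concerns raw reads and is not a reference for the fold. A ratio under 0.5 was found at 6 of the 10, against 77.9% of all shared genes. These were CARS2, EARS2, PARS2, SARS2, WARS1 and YARS1. The other four, FARSB, LARS1, QARS1 and WARS2, had 8 to 13 siNEG reads, where a siEWS-FLI pileup of up to 3 reads would not have been called. Below the 0.562 of the read totals were 7 of the 10, against 84.3% of all shared genes. At 50 reads or more the median ratio was 0.116 for the synthetase genes and 0.138 for all genes. A weak site enters the shared set only if its siEWS-FLI pileup passes the threshold, and siNEG reads enter both axes of the plot, so part of its slope is built in.

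**Figure D4:**
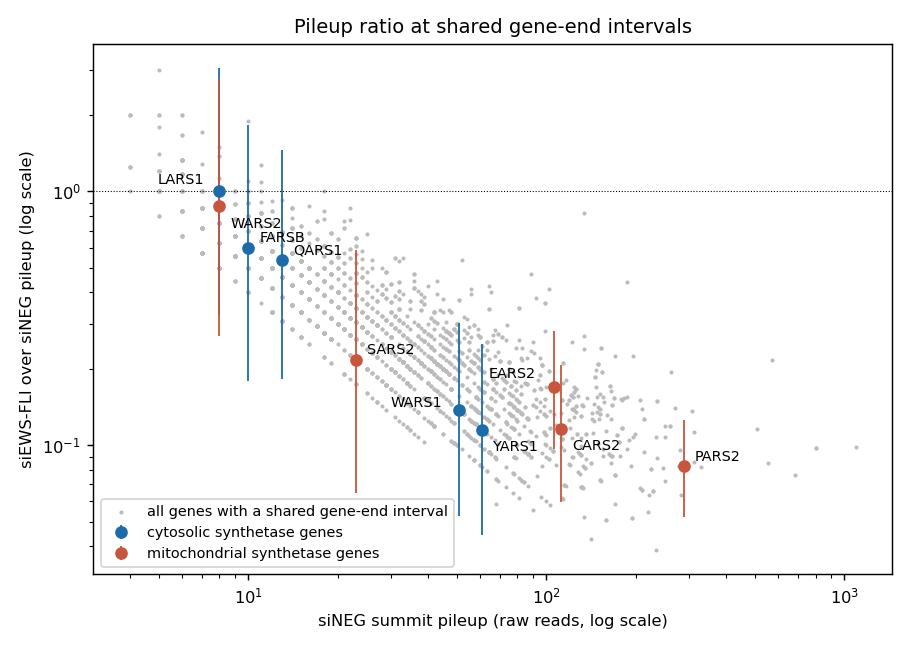
siEWS-FLI over siNEG summit pileup against siNEG summit pileup in raw reads, both on log axes, at shared gene-end intervals of all genes (grey) and of cytosolic (blue) and mitochondrial (red) synthetase genes; vertical lines are exact conditional binomial 95% intervals and the dotted line is a ratio of 1. The synthetase genes fall from 1 at LARS1 to 0.0828 at PARS2, inside the cloud of other genes.

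Some of these sites lie near the end of a second gene. The siNEG summit was within 1 kb of the end of another protein-coding gene at 12 of 27 synthetase genes (44.4%), against 35.7% of all genes with such a summit. The 12 had a median of 28.0 siNEG reads, from 5 to 112, and 5 of them were shared. The 15 with a site at their own end alone had a median of 10 reads, from 4 to 290, and 5 were shared. Neighbours not named so far were DDX19B at AARS1, TERF2IP at KARS1, ARHGAP9 at MARS1 and GTF2H4 at VARS2. At 10 of the 12 the signal cannot be assigned to the synthetase gene rather than its neighbour. The other two, HARS1 and HARS2, are each other's neighbour, and their site cannot be assigned to one of them.

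Within 50 kb, 30 of 35 genes had a siNEG summit (85.7%, against 71.8% of all genes) and 21 a siEWS-FLI summit (60.0%, against 44.5%). The wider window takes in sites of neighbours. For VARS1 the strongest siNEG site in it had 53 reads, 31.7 kb away and nearest to the heat shock gene HSPA1B, where the strongest siEWS-FLI pileup of 17 reads also lay. For FARSA it had 20 reads near GCDH, for MARS1 26 reads 4.01 kb away nearest to MBD6, and for VARS2 15 reads near MUCL3. HARS1 and HARS2 had a site of 42 reads nearest to WDR55, QARS1 one of 22 near USP19, and AARS2 one of 9 near NFKBIE.

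Of 16 genes that assist tRNA charging 9 had a siNEG summit within 1 kb (56.2%, against 34.1% of all genes) and 3 a siEWS-FLI summit (18.8%, against 12.3%). The siNEG interval was shared at 2 of the 9 (22.2%, against 30.8%). No difference from the synthetase genes was tested. PTRH2, a mitochondrial peptidyl-tRNA hydrolase gene, had 87 siNEG reads (69.7 to 107) and 11 siEWS-FLI reads, a ratio of 0.126 (0.0609 to 0.238), beside VMP1. XPOT, the gene of the exportin that carries tRNA out of the nucleus, had 78 siNEG (61.7 to 97.3) and 6 siEWS-FLI reads, with a ratio of 0.0769 (0.0274 to 0.175). GATB, for a subunit of the mitochondrial glutamyl-tRNA amidotransferase, had 11 siNEG reads, and DTD1, which removes D-amino acids from tRNA, and PSTK, a kinase of the selenocysteine pathway, had 10 each; none of these was called with siEWS-FLI.

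Genes of the amino acid response, which is set off by uncharged tRNA and raises many synthetase mRNAs, had a siNEG summit within 1 kb in 8 of 16 cases (50%, against 34.1% of all genes). A siEWS-FLI summit lay there in 2 (12.5%), near the 12.3% of all genes, and 1 of the 8 was shared (12.5%, against 30.8%). DDIT3, the gene of the factor CHOP, had 26 siNEG reads (17.0 to 38.1), in the window of MARS1 described above. GCN1, an activator of the kinase that senses uncharged tRNA, had 19 (11.4 to 29.7), ATF4, the gene of the main transcription factor of the response, 15 (8.40 to 24.7), and TRIB3, a pseudokinase gene, 13 (6.92 to 22.2). None of these 4 was called with siEWS-FLI. DDIT4 was shared, with 11 and 5 reads (ratio 0.455, 0.124 to 1.42). ATF5, the other gene with a siEWS-FLI summit, had 10 reads (4.80 to 18.4) 998 bases from its start. Its strongest siNEG summit, with 31 reads (21.1 to 44.0), was 1.01 kb from a gene end and so fell just outside the window.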

How the data were processed

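CUT&Tag peak lists for EWS-FLI in TC32 cells, 1 library with siEWS-FLI and 1 with siNEG, were used as deposited, with groups taken from the labels. Per the labels' protocols, libraries were amplified by 14 and then 20 PCR cycles. The trimmer Trim Galore 0.6.6, the aligner Bowtie2 2.4.5 and hg38, with the peak caller MACS2 2.2.9.1, are listed, per the submitters' processing notes, without saying how each was used; in the sources used here, a control library and the treatment of duplicates are not given. The deposited fold is the linear enrichment ratio of the summit, and the deposited −log10 p-value and −log10 q-value are those of the caller. Repeated lines of an interval were reduced to that with the highest −log10 q, on chromosomes 1 to 22, X and Y, which left 16284 siNEG and 6370 siEWS-FLI intervals.

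The summit pileup was solved from the deposited fold, (pileup + 1) / (background + 1), and −log10 p, a Poisson upper tail. A whole pileup solved both in 100% of lines, within 0.001 in log10 p, growing in proportion for −log10 p above 10. In 47 siNEG and 38 siEWS-FLI lines more than 1 pileup did so, none of them at the strongest gene-end site of a synthetase gene. The solver was tested on simulated peaks. Read totals outside the mitochondrial window, about 2848814 and 1600018, assume a genome of 2700000000 bases. Genes and promoters are from RefSeq GRCh38.p14. A shared interval overlaps by at least 1 base. Poisson intervals are exact at 95%; ratios have exact conditional binomial intervals. The intervals cover counting error alone and treat each read as an independent molecule. PCR copies are not independent, so the intervals can be too narrow.

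The members and lists were chosen with earlier results of these data known. Text values were given by a written rule for all members with a siEWS-FLI gene-end summit, the 10 with the highest siNEG gene-end pileup and those with none. The rule also named those whose strongest siNEG summit within 50 kb most exceeded the gene-end one, and up to 4 genes of each further list. Outside that rule, values were given for the scaffold genes of the multisynthetase complex, a tied gene among DTD1 and PSTK, DDIT4 and ATF5. Scripts used Python 3.11.15, NumPy 2.4.6, SciPy 1.17.1, pandas 2.3.3 and matplotlib 3.10.9. Other windows, thresholds, overlap rules and signal measures were tried in turn.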

Additional observations from a re-analysis of the deposited data

How the results depend on the processing

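Of 47 values under alternative settings for 6 results, 38 stayed within 1.5 times the count or, for the median ratio, between 0.0807 and 0.444. These bounds are the medians of the lower and of the upper counting limits of the shared genes' ratios. They are typical of individual genes and are not an interval of the median ratio, so staying between them is a loose check. Keeping −log10 q of at least 5 left 6 genes with a siEWS-FLI gene-end summit, 5 shared and 10 with a siEWS-FLI summit within 50 kb. Leaving out intervals of exactly 200 bases left 6 and 6 at gene ends. With the siNEG list cut to 6370 intervals, as many as siEWS-FLI has, 17 genes had a siNEG gene-end summit. A reciprocal overlap of 50% left 6 shared. When a summit counted for the nearest gene and no other, 12 genes had a siEWS-FLI summit within 50 kb. Each of these settings keeps fewer intervals or assignments by construction. With fold enrichment in place of pileup the median ratio was 0.544; the fold divides by a local background that was higher with siNEG. The start alone could be used for 30 genes. Alternatives that counted HARS1 and HARS2 once, or left out siNEG pileups under 10, were chosen after seeing the data. Depth limits weak sites: pileups up to 3 reads stayed uncalled. No paired analysis was possible because each group has 1 library.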
